A study of Mus musculus with 16 samples.

Results

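Adipoq, Lep, Retn, Cfd, Fabp4, Plin1, Cidec, and Pparg, which mark white adipocytes, were followed through RNA sequencing of pieces of skeletal muscle. The members are the rows of the mRNA table whose gene name is one of these 8, with the counts of their 28 transcripts summed per gene name, so they are 8 of 23235 gene names. All 8 passed the filter on low counts. The samples were 16 male C57BL/6J mice, which were 6 weeks old at the start. The control group ate a normal diet. The HFD group was fed a diet with 60% fat for 8 weeks before the treatment period, the HFD + RSV group ("HFD + reveratrol" in the labels) was given resveratrol for 6 weeks after that, and the HFD + metformin group was given metformin for the same 6 weeks. Each group had 4 mice and each mouse gave 1 library, so a replicate is a mouse. No gene was modified in any group. Which muscle was taken, and how fat around it was trimmed, is not given in the sources used here.

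White adipocytes store triglyceride in a single large lipid droplet and release hormones into the blood. The transcription factor Pparg drives their formation and switches on genes for fat uptake, droplet coating, and secreted proteins. Muscle fibres make little of these transcripts, and adipocytes lie between fibres and around the muscle. Among the secreted products, Adipoq encodes adiponectin, Lep encodes leptin, Retn encodes resistin, and Cfd encodes adipsin (complement factor D). Fabp4 carries fatty acids in the cell and is also made by endothelial cells of capillaries, Plin1 coats the lipid droplet, and Cidec lets droplets fuse.

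On GRCm38, the members lie at chr16:23146536-23158028 (Adipoq), chr6:29060220-29073877 (Lep), chr8:3655770-3660110 (Retn), chr10:79890853-79892655 (Cfd), chr3:10204088-10208576 (Fabp4), chr7:79720218-79732903 (Plin1), chr6:113424634-113435760 (Cidec), and chr6:115360951-115490399 (Pparg). Pparg has alternative starts, and the later one gives Pparg2, the form that adipocytes favour. The 250 bases before 4 start sites are shown because the values below differ most between them. These are Adipoq and Lep, whose levels parted in the HFD group, and the early and the late start of Pparg. Transcripts that begin near the early start and at the late start varied to a different degree between mice. The transcript compared for the early start, Pparg-202, begins before it, so 193 of the 250 bases shown lie inside that transcript. Sequences are from RefSeq (GRCm38.p6), for which 7 of the 8 members had entries (Fabp4 had none), with 10 start sites in all. Capitals mark matches on either strand to TTGCNNAA, the element bound by C/EBP factors, and to AGGTCA, the half-site of nuclear receptors.
Adipoq, plus strand, chr16:23146286-23146535: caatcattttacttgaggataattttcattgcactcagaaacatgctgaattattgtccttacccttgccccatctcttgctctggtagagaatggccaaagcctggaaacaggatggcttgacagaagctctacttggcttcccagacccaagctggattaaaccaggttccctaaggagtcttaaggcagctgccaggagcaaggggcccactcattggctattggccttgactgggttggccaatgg
Lep, plus strand, chr6:29059971-29060220: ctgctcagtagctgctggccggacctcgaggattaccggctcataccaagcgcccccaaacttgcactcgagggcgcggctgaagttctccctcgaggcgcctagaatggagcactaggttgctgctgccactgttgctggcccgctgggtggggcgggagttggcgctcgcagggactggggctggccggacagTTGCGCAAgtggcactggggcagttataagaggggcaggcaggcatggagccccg
Pparg early start, plus strand, chr6:115360894-115361143: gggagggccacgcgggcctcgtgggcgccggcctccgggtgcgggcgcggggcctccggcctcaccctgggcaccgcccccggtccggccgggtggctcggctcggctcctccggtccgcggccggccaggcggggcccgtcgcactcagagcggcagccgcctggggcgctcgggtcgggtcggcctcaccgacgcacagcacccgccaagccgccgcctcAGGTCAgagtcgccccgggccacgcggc
Pparg late start, plus strand, chr6:115421816-115422065: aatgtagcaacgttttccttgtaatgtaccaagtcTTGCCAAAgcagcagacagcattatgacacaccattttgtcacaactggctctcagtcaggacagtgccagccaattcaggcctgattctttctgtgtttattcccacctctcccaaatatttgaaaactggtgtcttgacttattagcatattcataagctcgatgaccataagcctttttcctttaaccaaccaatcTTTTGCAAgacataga

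TTGCNNAA was found before 4 of the 10 start sites of the members (Lep, the late start of Pparg, Plin1, and a start of Cidec), and 9.56% of 32851 RefSeq start sites hold it in the same window. In Lep it reads the same on both strands, from position -55 to -48, counted from the start site. Before the late start of Pparg it lies at -215 to -208 and, on the other strand, at -16 to -9. AGGTCA was found only before the early start of Pparg and a start shortly after it, against 14.0% of all start sites. Pairs of AGGTCA with 1 base between them (a DR1 element, the site of PPARG with its partner RXR) were found before none of the 10 and before 0.0335% of all. TATAAA was found before 1 of the 10, a start of Pparg that is not shown, and before 12.4% of all. These are matches of letters only.

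Total counts in the mRNA table ranged from 17625909 to 29761026 per mouse (median 22724161), no pair of libraries was identical, and the rank correlation between mice was 0.957 to 0.978. Genes of skeletal muscle fibres summed to 168413 to 320739 CPM, where CPM is the TMM-scaled level relative to library size, so the libraries carried the markers of their labelled tissue. A total of 15364 genes entered the edgeR quasi-likelihood test. A gene was called at a Benjamini-Hochberg adjusted P under 0.05 with an absolute log2FC above 1. All 4 HFD mice carry a leading number in their labels that no other group has, and an effect of whatever that number stands for cannot be told apart from one of diet. In bulk muscle, fewer adipocytes and less RNA per adipocyte cannot be told apart.

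The 8 genes together took from 213 CPM in HFD mouse 2 to 4776 CPM in control mouse 3, a 22.4-fold range. Their sum was 1061 to 4776 CPM in the control group (median 1561), 213 to 1050 CPM in the HFD group (median 407), 308 to 1229 CPM in the HFD + RSV group (median 543), and 216 to 4450 CPM in the HFD + metformin group (median 1059). The lowest sum of the control group was just above the highest of the HFD group, whereas those of the HFD + metformin group spanned nearly the whole range. Control mouse 3 and metformin mouse 3 had the highest sums of adipocyte genes, and they also had the lowest sums of muscle fibre genes (168413 and 178986 CPM). The part of this shift in the results below was not tested.

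**Figure D1:**
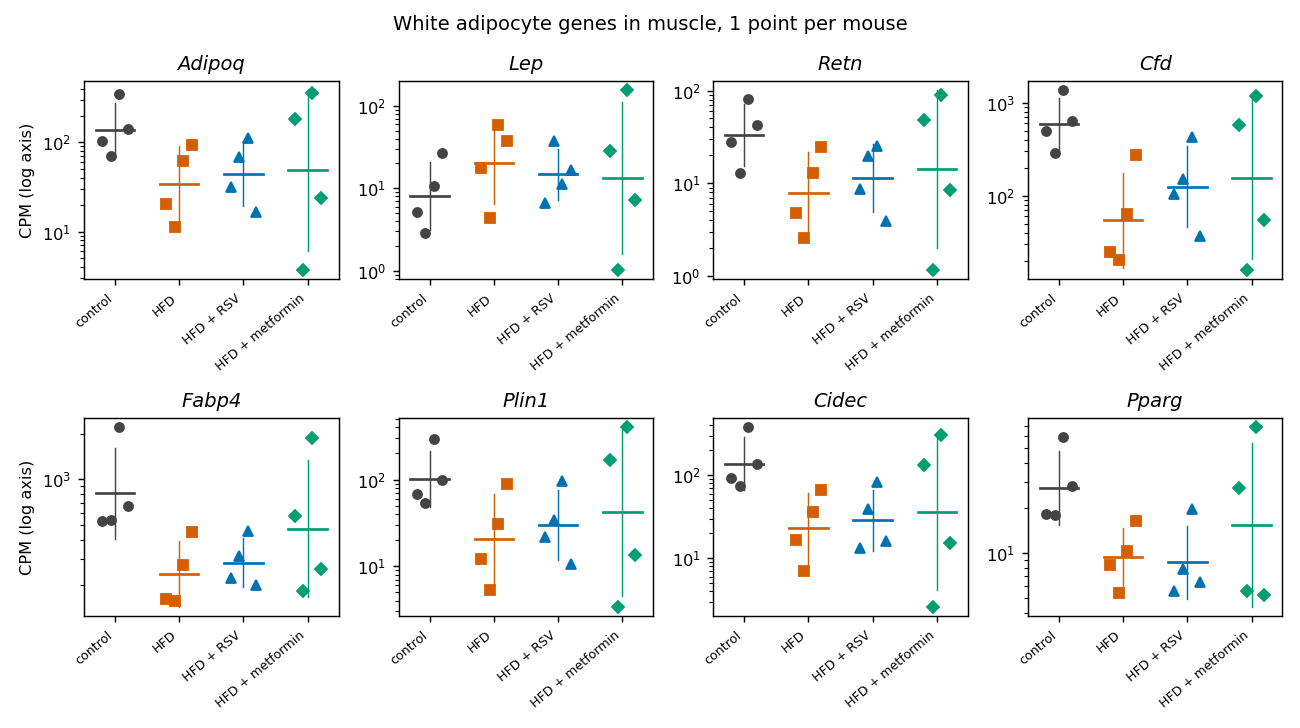
Level of each of the 8 genes in each mouse (CPM, log axis) by group, with 1 point per mouse. Horizontal bars are geometric means and vertical bars are ± 1 SD of the log values (n = 4). Cfd, Fabp4, Cidec, and Pparg of all control mice lie above those of all HFD mice, and metformin mice span the widest range (Adipoq 3.67 to 355 CPM).

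Adipoq, whose product adiponectin raises insulin sensitivity, was measured at 104, 69.8, 352, and 142 CPM in control mice 1 to 4 and at 20.5, 11.2, 61.4, and 94.1 CPM in HFD mice 1 to 4. In HFD + RSV mice 1 to 4 it was 31.6, 67.9, 112, and 16.5 CPM, and in metformin mice 1 to 4 it was 182, 3.67, 355, and 23.5 CPM. HFD mouse 4 lay above control mouse 2, so the control and HFD groups overlapped by 1 mouse on each side. The log2FC of HFD mice against control mice was -1.84 (SE 1.06, 95% interval -3.91 to 0.24, n = 4 and 4, adjusted P = 0.301 by edgeR), which did not pass the test.

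Retn moved with Adipoq from mouse to mouse. Its levels were 13.0 to 80.6 CPM in the control group, 2.58 to 24.4 CPM in the HFD group, 3.98 to 25.6 CPM in the HFD + RSV group, and 1.16 to 89.9 CPM in the HFD + metformin group. The groups overlapped, and the log2FC of HFD mice against control mice was -1.88 (SE 1.02, adjusted P = 0.274 by edgeR).

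Cfd, a serine protease of the alternative complement pathway, was 495, 292, 1374, and 637 CPM in control mice 1 to 4 and 24.9, 20.1, 63.0, and 272 CPM in HFD mice 1 to 4. Every control mouse lay above every HFD mouse, although HFD mouse 4 was close to control mouse 2. In HFD + RSV mice 1 to 4, Cfd was 104, 150, 426, and 36.8 CPM, and in metformin mice 1 to 4 it was 572, 15.7, 1182, and 54.8 CPM. The log2FC of HFD mice against control mice was -2.88 (SE 1.20, 95% interval -5.24 to -0.52), the largest of the 8 in size, with an unadjusted P of 0.0309 and an adjusted P of 0.164 by edgeR. Without HFD mouse 4, it was -4.28 (adjusted P = 0.0985 by edgeR).

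Lep was the exception in sign. Its levels were 5.22, 2.90, 10.6, and 26.4 CPM in control mice 1 to 4 and 17.7, 4.32, 58.6, and 37.8 CPM in HFD mice 1 to 4. In HFD + RSV mice 1 to 4 it was 6.66, 37.2, 11.4, and 16.6 CPM, and in metformin mice 1 to 4 it was 27.9, 1.01, 155, and 7.22 CPM. All groups overlapped, and the log2FC of HFD mice against control mice was 1.40 (SE 1.14, 95% interval -0.84 to 3.64, adjusted P = 0.475 by edgeR). The sign of this difference was the opposite of that of the other 7 genes.

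Among the genes for lipid handling, Fabp4 was the most abundant and varied least between mice. It was 530, 537, 2222, and 672 CPM in control mice 1 to 4 and 163, 157, 274, and 452 CPM in HFD mice 1 to 4. It was 223, 314, 454, and 201 CPM in HFD + RSV mice 1 to 4 and 576, 183, 1884, and 255 CPM in metformin mice 1 to 4. All control mice lay above all HFD mice, and 9.44% of all genes were lower in the HFD group without overlap. All control mice also lay above all HFD + RSV mice. Fabp4 was the only member without overlap in that comparison, for which no share of all genes is given. The log2FC of HFD mice against control mice was -1.92 (SE 0.70, 95% interval -3.29 to -0.55), with an unadjusted P of 0.0156 and an adjusted P of 0.121 by edgeR. Fabp4 was the only member that any change of the mice in the fit brought to a call: its adjusted P (edgeR) was 0.044 in a fit without the metformin group and 0.0432 in a fit without metformin mouse 3, with the same log2FC in both.

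Cidec was 91.5, 74.6, 383, and 136 CPM in control mice 1 to 4 and 16.6, 6.94, 35.7, and 66.1 CPM in HFD mice 1 to 4, again without overlap. It ranged from 13.3 to 82.3 CPM in the HFD + RSV group and from 2.58 to 307 CPM in the HFD + metformin group. Its log2FC for HFD mice against control mice was -2.45 (SE 1.12, 95% interval -4.65 to -0.25), with an unadjusted P of 0.0461 and an adjusted P of 0.2 by edgeR. Plin1 had 53.8 to 293 CPM in the control group, 5.36 to 88.3 CPM in the HFD group, 10.6 to 97.5 CPM in the HFD + RSV group, and 3.37 to 407 CPM in the HFD + metformin group. Its groups overlapped, and its log2FC was -1.91 (SE 1.20, adjusted P = 0.341 by edgeR).

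Pparg, the regulator of adipocyte formation, was 18.3, 17.9, 59.9, and 27.9 CPM in control mice 1 to 4 and 8.39, 5.45, 10.3, and 16.4 CPM in HFD mice 1 to 4. It was 5.63, 7.85, 19.8, and 6.44 CPM in HFD + RSV mice 1 to 4 and 27.3, 5.62, 69.6, and 5.28 CPM in metformin mice 1 to 4. The control and HFD groups did not overlap, and HFD + RSV mouse 3 was the one treated with resveratrol that reached the level of control mice 1 and 2. The log2FC of HFD mice against control mice was -1.62 (SE 0.75, 95% interval -3.08 to -0.15), with an unadjusted P of 0.0476 and an adjusted P of 0.203 by edgeR.

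For HFD mice against control mice, 0 of the 8 genes were called by edgeR, against 0.859% of the 15364 genes tested. DESeq2 called 0 of the 8, against 467 of the 15364 genes, and its smallest adjusted P among the 8 was that of Cfd (0.0619). At an unadjusted P under 0.05 and a log2FC below -1, 4 of the 8 passed (Cfd, Fabp4, Cidec, and Pparg), against 4.03% of all genes. The same 4 did not overlap between the groups and had the smallest P that an exact two-sided permutation test of 4 against 4 mice can give (0.0286), and 9.44% of all genes tested were lower in the HFD group without overlap. The log2FC was negative for 7 of the 8, with a median of -1.90, beside a median of -0.02 over all genes tested. Single mice weighed on all 8 values, none of which changed sign. Without control mouse 3, the log2FC was -1.17 for Adipoq, -1.31 for Retn, -2.32 for Cfd, -1.15 for Fabp4, -1.10 for Plin1, -1.68 for Cidec, and -1.08 for Pparg. Without HFD mouse 4, it was -2.43 for Adipoq, -2.60 for Retn, -2.32 for Fabp4, -3.00 for Plin1, -3.12 for Cidec, and -1.94 for Pparg. Lep ran from 0.82 without HFD mouse 3 to 2.24 without control mouse 4.

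**Figure D2:**
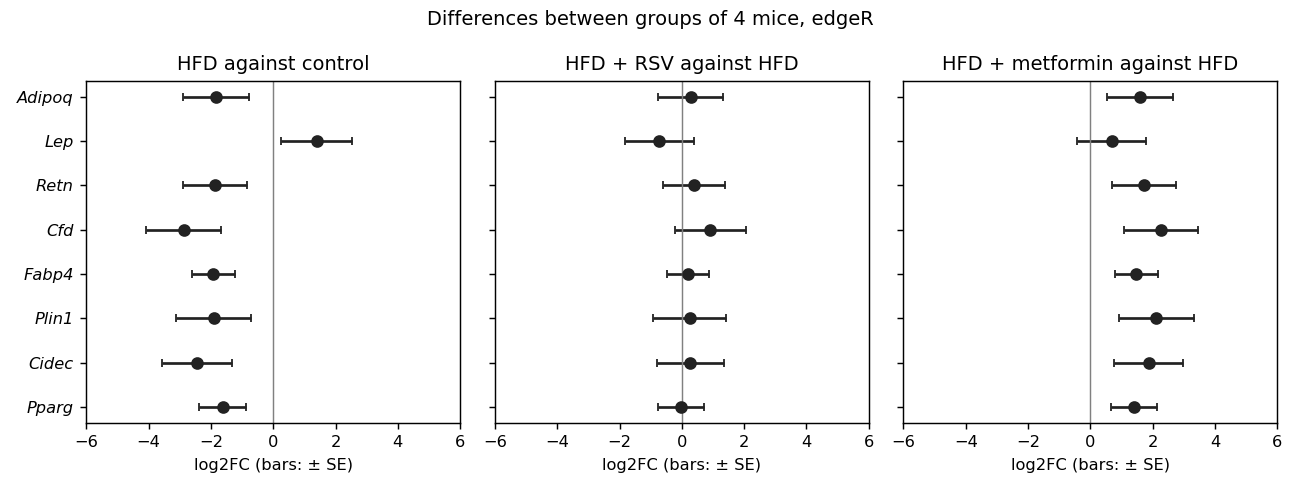
The log2FC of each gene (points, with bars of ± SE, edgeR, 4 against 4 mice) for HFD mice against control mice, HFD + RSV mice against HFD mice, and metformin mice against HFD mice. In the first panel Lep lies at 1.40 and the others between -2.88 and -1.62, and no gene passed the adjusted P in any panel.

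Resveratrol was compared with the HFD group, whose 4 mice enter the first comparison too. None of the 8 members was called by edgeR (0% of all genes) or by DESeq2 (8 of 15364 genes). None passed the unadjusted rule, against 1.08% of all genes. The log2FC ran from -0.72 (Lep, SE 1.12) to 0.92 (Cfd, SE 1.13), and all 8 overlapped between the groups. For Adipoq it was 0.28 with a 95% interval of -1.74 to 2.30, so differences in either direction within that interval are compatible with these values. Against the control group, the HFD + RSV group had 0 of 8 genes called by edgeR (0.00651% of all genes) and by DESeq2 (114 of 15364 genes). At the unadjusted rule, 2 of 8 passed as lower, against 2.13% of all genes. These were Fabp4 (log2FC -1.73, SE 0.70, adjusted P = 0.259 by edgeR) and Pparg (log2FC -1.64, SE 0.75, adjusted P = 0.308 by edgeR).

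Metformin mice had a positive log2FC against HFD mice for all 8 genes, although Lep turned to -1.32 without metformin mouse 3. The log2FC ran from 0.69 (Lep, SE 1.11) to 2.27 (Cfd, SE 1.18), and that of Fabp4 had the smallest P of the 8 (log2FC 1.47, SE 0.69, unadjusted P = 0.0511, adjusted P = 0.618 by edgeR). None was called by edgeR (0.0130% of all genes) or DESeq2 (16 of 15364 genes), and none passed the unadjusted rule (1.76% of all genes). Metformin mouse 2 had the lowest level of all 16 mice for Adipoq, Lep, Retn, Cfd, Plin1, and Cidec, whereas metformin mouse 3 had the highest for Adipoq, Lep, Retn, Plin1, and Pparg. Adipoq differed 96.7-fold between these mice of the same group. Against the control group, 0 of 8 genes were called by edgeR (0% of all genes) or DESeq2 (57 of 15364 genes). At the unadjusted rule 0 passed (1.63%), and the largest difference was in Lep (log2FC 2.09, SE 1.16, adjusted P = 0.606 by edgeR). Lep was 155 CPM in metformin mouse 3, whereas the other metformin mice had 1.01 to 27.9 CPM, beside 2.90 to 26.4 CPM in the control mice. Between the HFD + RSV and HFD + metformin groups, 0 of 8 were called by edgeR (0% of all genes) or DESeq2 (5 of 15364 genes), and 0 passed the unadjusted rule (0.970%). A joint edgeR test of any difference among the 4 groups called 0 of 8 genes and 0.117% of all genes. Fabp4 alone had an unadjusted P under 0.05 in that joint edgeR test (0.0346, adjusted P = 0.295).

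**Figure D3:**
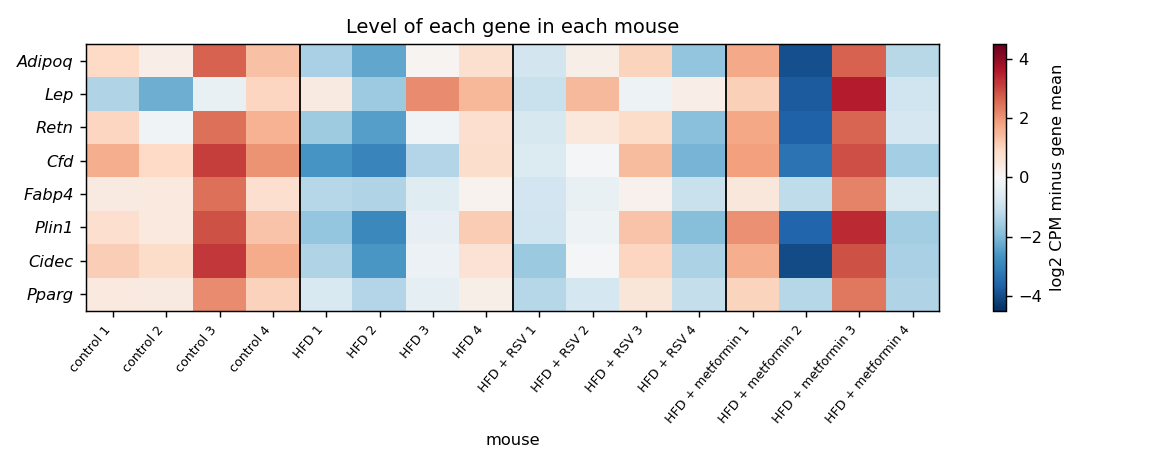
Level of each gene in each mouse as log2 CPM minus the mean of that gene over 16 mice (red above, blue below), with black lines between groups. All 8 genes lie on the same side of their means in 8 of 16 mice, such as metformin mouse 3 (above) and metformin mouse 2 (below). Lep alone lies on the other side in 5 mice (control mice 1 and 3, HFD mouse 1, and HFD + RSV mice 3 and 4), and the remaining 3 are mixed.

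The spread between mice of the same group was the leading feature of these genes. The SD of log2 CPM within groups was 2.01 for Plin1, 1.92 for Lep, 1.89 for Cfd, 1.88 for Cidec, 1.82 for Adipoq, 1.76 for Retn, 1.12 for Pparg, and 1 for Fabp4. The median was 1.85 for the 8 genes, beside 0.254 over all 15364 genes tested, and each member lay above 95.8% or more of all genes. Without metformin mouse 2, the median SD of the 8 genes fell to 1.43. The biological coefficient of variation that edgeR assigned was 0.639 for Fabp4 to 1.04 for Plin1, beside a median of 0.179 over all genes.

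The members varied together. Over the 16 mice, log2 CPM of Retn followed Adipoq with a Pearson r of 0.991 and a Spearman rho of 0.994. Plin1 had r = 0.986 and rho = 0.997, Cidec had r = 0.985 and rho = 0.962, and Cfd had r = 0.956 and rho = 0.982. Pparg (r = 0.897, rho = 0.932) and Fabp4 (r = 0.889, rho = 0.956) followed Adipoq less closely. Each of these 6 had a permutation P of 2e-05 for r and for rho (100000 permutations, the smallest they can give; 2.33e-05 adjusted over the 7 relations). Without metformin mouse 2 and HFD mouse 2, the mice farthest from the median of Adipoq, r was 0.933 to 0.987 for these 6. After the group means were subtracted, their r was 0.902 to 0.993. The genes share a library in each mouse, so a common scaling error would move them together.

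Lep followed Adipoq less than the others did. Its r was 0.616 (permutation P = 0.011) and its rho was 0.462 (permutation P = 0.0755), and without those same mice r was 0.345, so the pooled relation rested on them. After the group means were subtracted, r was 0.848.

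**Figure D4:**
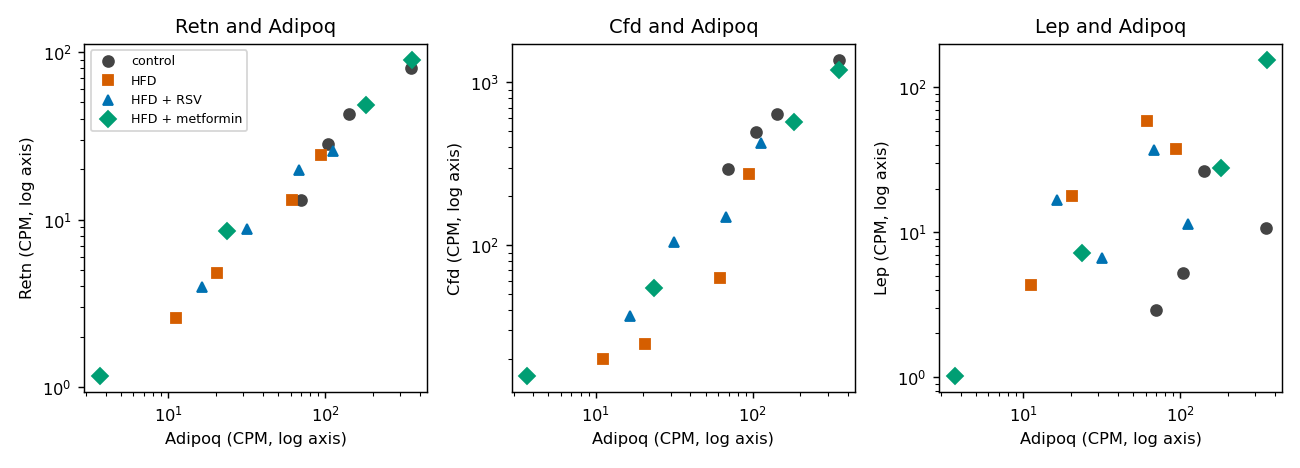
Retn, Cfd, and Lep against Adipoq in each mouse (CPM on both log axes, 1 point per mouse, groups by colour and shape). Retn lies on 1 line through all groups (r = 0.991), HFD mice lie below control mice in Cfd at a given level of Adipoq, and control mice 1 to 3 lie below the HFD mice in Lep at a given level of Adipoq (r = 0.616 over all mice).

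Because the levels of the adipocyte genes differed so much between mice, each gene was divided by Adipoq of the same mouse, a measure chosen after the values were seen. A ratio therefore also carries any difference in Adipoq itself. The ratio of Lep to Adipoq was 0.0501, 0.0415, 0.0302, and 0.186 in control mice 1 to 4 and 0.863, 0.387, 0.955, and 0.401 in HFD mice 1 to 4. It was 0.211, 0.548, 0.102, and 1.01 in HFD + RSV mice 1 to 4 and 0.153, 0.276, 0.436, and 0.308 in metformin mice 1 to 4. All HFD mice lay above all control mice, and the ratio was 10.2-fold higher in the HFD group (log2 difference 3.36, SE 0.67, 4 of 4 mice above every control mouse, exact permutation P = 0.0286). Leaving out each mouse of these groups in turn gave 8.21-fold to 15-fold. The P adjusted over the 42 ratio tests, of 7 genes in 6 comparisons, was 0.240, and no ratio passed that correction. The exact test of 4 against 4 mice gives no P under 0.0286. A single ratio thus could not have passed it, however large its difference, and the failure to pass carries no information.

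The ratio of Cfd to Adipoq differed in the other direction. It was 4.74, 4.18, 3.90, and 4.48 in control mice 1 to 4 and 1.22, 1.80, 1.03, and 2.89 in HFD mice 1 to 4. The groups did not overlap, and the ratio was 2.70-fold lower in the HFD group (log2 difference -1.43, SE 0.34, exact permutation P = 0.0286, adjusted P = 0.240). It was 3.31, 2.21, 3.82, and 2.23 in HFD + RSV mice 1 to 4, all below the control mice (1.54-fold lower, exact permutation P = 0.0286, adjusted P = 0.240). Metformin mice had ratios of 3.15, 4.29, 3.33, and 2.34, which overlapped with the control group.

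The ratio of Cidec to Adipoq was 1.47-fold lower in HFD mice than in control mice (0.582 to 0.812 against 0.878 to 1.09) and 1.35-fold lower in metformin mice than in control mice (0.654 to 0.866). Both had an exact permutation P of 0.0286 and an adjusted P of 0.240. The ratio of Retn to Adipoq kept within 0.186 to 0.363 in all 16 mice, and those of Plin1, Fabp4, and Pparg overlapped between groups in every comparison.

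A fit to all genes with the level of Adipoq in each mouse as a covariate was also chosen after the values were seen. It gave Lep, Cfd, and Cidec the same signs as their ratios had. The fit uses the same Adipoq values as the ratios, so it is not independent of them. For HFD mice against control mice, the log2FC at a given level of Adipoq was 2.95 for Lep (SE 0.78, unadjusted P = 0.00207, adjusted P = 0.096 by edgeR) and -1.29 for Cfd (SE 0.32, unadjusted P = 0.00114, adjusted P = 0.0827 by edgeR). Neither was called, and 0.293% of all genes were. In this fit 4 of the other 7 members had an unadjusted P under 0.05, namely Lep, Cfd, Fabp4 (log2FC -0.81), and Cidec (log2FC -0.52), and so did 17.6% of all genes. For each doubling of Adipoq, the fitted log2 level rose by 0.51 for Fabp4 and 0.56 for Pparg, and by 0.92 (Lep) to 1.10 (Plin1) for the other 5. A ratio to Adipoq supposes a rise in proportion, and Fabp4 and Pparg changed sign between these measures. For HFD mice against control mice, their log2 ratios differed by 0.26 and 0.49, whereas their log2FC in this fit was -0.81 and -0.42.

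Fabp4 and Pparg were lower where Adipoq was lowest, but by less than the rest. In metformin mouse 2, Adipoq was 3.67 CPM, Fabp4 was 183 CPM, and Pparg was 5.62 CPM, so the ratios to Adipoq were 49.9 and 1.53, beside 3.17 to 14.1 and 0.116 to 0.487 in the other 15 mice. Endothelial genes, whose cells also make Fabp4, summed to 469 CPM in this mouse and to 319 to 477 CPM over all mice. All 6 endothelial genes were detected in every mouse, and their part in the level of Fabp4 was not tested.

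Levels were compared between genes only as FPKM, the length-scaled unit that the authors deposited, summed per gene. Fabp4 (113 to 2240 FPKM) and Cfd (14.9 to 1544 FPKM) held the top places in all 16 mice, with Fabp4 first in 12 and Cfd first in 4. Adipoq (2.37 to 279 FPKM) was the third in 15 of 16 mice. Cidec (1.44 to 255 FPKM), Plin1 (1.45 to 202 FPKM), and Retn (1.02 to 103 FPKM) followed and exchanged places between mice. Pparg (2.59 to 45.3 FPKM) and Lep (0.259 to 48.9 FPKM) were the lowest in most mice, Lep being last in 10 of 16 and Pparg in 6. In all 4 control mice Lep was last and Pparg next to last, whereas Lep had more FPKM than Pparg in HFD mice 1, 3, and 4.

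The transcripts of Pparg differed in their spread. Pparg-202 begins at chr6:115360951, which is 193 bases before the early start of RefSeq, so 193 of the 250 bases printed for that start, AGGTCA among them, lie inside this transcript. Pparg-201 begins at chr6:115422066, the late start, whose upstream bases lie within the span of Pparg-202. Pparg-201 had 140, 219, 521, and 193 counts in control mice 1 to 4 and 37, 1, 75, and 125 in HFD mice 1 to 4. It had 1, 50, 220, and 10 counts in HFD + RSV mice 1 to 4 and 195, 2, 589, and 62 in metformin mice 1 to 4. It thus ranged from 1 to 589 counts (0.0185 to 14.3 FPKM) with a Spearman rho with Adipoq counts of 0.918 over 16 mice. The lowest counts, 1 to 10, were in HFD mouse 2, metformin mouse 2, and HFD + RSV mice 1 and 4, although HFD mouse 1, with less Adipoq than HFD + RSV mouse 1 (20.5 against 31.6 CPM), had 37.

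Pparg-202 had 43 to 220 counts in all 16 mice (0.600 to 4.01 FPKM), with a rho of 0.681. In metformin mouse 2, where Pparg-201 had 2 counts, Pparg-202 had 112. Pparg-204, which begins at chr6:115362292, had 655 and 664 counts in control mouse 3 and metformin mouse 3 and 0 to 94 counts in the others. None of the 3 was called for HFD mice against control mice by edgeR on transcripts (0.00897% of transcripts were), with log2FC values of -2.06 (Pparg-201, SE 1.44), -0.45 (Pparg-202, SE 0.48), and -2.36 (Pparg-204, SE 1.40) and unadjusted P above 0.05. These transcripts share exons, and StringTie divides the reads of shared exons among them, so the split is an estimate.

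**Figure D5:**
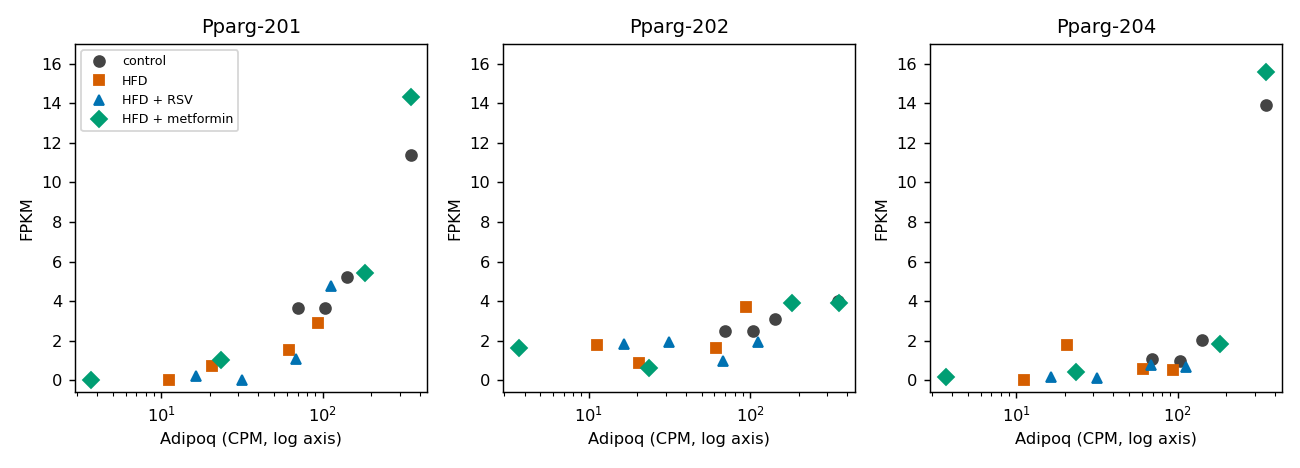
FPKM of 3 transcripts of Pparg (linear axis) against Adipoq of the same mouse (CPM, log axis), with 1 point per mouse. Pparg-201 runs from 0.0185 to 14.3 FPKM with Adipoq, Pparg-202 stays between 0.600 and 4.01 FPKM, and Pparg-204 is high in control mouse 3 and metformin mouse 3 only.

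The other members mostly had 1 main transcript. Adipoq-201 held 99.8% of the counts of Adipoq, Lep-201 99.7% of those of Lep, and Retn-201 94.2% of those of Retn. Plin1-206 held 81.7% of the counts of Plin1 and Cfd-202 held 77.5% of those of Cfd. For Cidec, counts were divided almost evenly between Cidec-201 (44.1%) and Cidec-202 (48.6%), whose starts lie at chr6:113435756 and chr6:113435760, and HFD mouse 2 had 0 counts of the first and 159 of the second. Fabp4-202, which GENCODE lists as a transcript with a retained intron, covers 4231 bases against 896 for Fabp4-201. It held 16.2% of the counts of Fabp4. As for Pparg, the splits between transcripts of a gene are estimates.

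Further genes of adipocytes were read from a list of 22 names, of which 21 were in the table. For HFD mice against control mice, 0 of 21 were called by edgeR (0.859% of all genes). At the unadjusted rule, 8 passed as lower (4.03% of all genes), and 19 had a negative log2FC (median -1.62). The 4 with the smallest P were Dgat2, which completes triglyceride synthesis (log2FC -2.26, SE 0.57, adjusted P = 0.0534), Agpat2 (log2FC -2.52, adjusted P = 0.101), Rbp4, the retinol carrier (log2FC -2.25, adjusted P = 0.113), and Adig (log2FC -1.84, adjusted P = 0.117; all edgeR). Leaving out single mice brought up to 3 of the 21 to a call: Dgat2, Agpat2, and Adig without metformin mouse 3 (adjusted P 0.00989, 0.049, and 0.0499 by edgeR), and Dgat2 alone without control mouse 1 or metformin mouse 4.

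Several enzymes of fatty acid synthesis were lower in the HFD group. Of the 9 genes of the list, 5 were called as lower and 0 as higher, against 0.859% of all genes called, and the median log2FC was -3.38. Me1 (log2FC 0.04), Mlxipl (0.01), and Srebf1 (-0.26) differed little. Fasn, the fatty acid synthase, was 2400, 2697, 6471, and 454 CPM in control mice 1 to 4 and 53.7, 39.3, 84.1, and 73.0 CPM in HFD mice 1 to 4. Its log2FC was -5.59 (SE 0.88, adjusted P = 0.0144 by edgeR). Elovl6, which lengthens fatty acids, fell by 6.05 on the log2 scale (adjusted P = 0.0177), Acaca, the acetyl-CoA carboxylase, by 3.38 (adjusted P = 0.0156), Acly, the ATP citrate lyase, by 2.71 (adjusted P = 0.0143), and Thrsp by 3.46 (adjusted P = 0.0423; all edgeR). These groups did not overlap in any of the 5 genes, and 9.44% of all genes were lower in the HFD group without overlap. The 5 were picked by their call in the same mice, so this lack of overlap adds no further support. Leaving out each of the 16 mice in turn, a check added after the values were seen, left from 1 (without HFD mouse 1) to 6 genes of the list called, and Acly was called each time.

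Some genes of the brown adipocyte list, such as Ucp1, reached high levels in only some of the muscle pieces. Of 8 genes on this list, 2 were called as lower in the HFD group and 0 as higher, against 0.859% of all genes called. Cidea, a droplet protein of brown adipocytes, was 41.7, 70.0, 285, and 21.5 CPM in control mice 1 to 4 and 0.779, 1.12, 1.02, and 2.39 CPM in HFD mice 1 to 4 (log2FC -6.30, SE 1.53, adjusted P = 0.0474 by edgeR). Elovl3, an elongase of brown adipocytes, was 1.52, 5.40, 49.0, and 0.780 CPM in the control mice and 0 in HFD mice 1, 2, and 4, with 0.133 CPM in HFD mouse 3 (adjusted P = 0.0342 by edgeR). Ucp1, which makes brown adipocytes release heat, was 11.9, 39.9, 408, and 3.12 CPM in the control mice, 0.249 to 1.06 CPM in the HFD group, and 89.9 CPM in metformin mouse 3 (HFD mice against control mice, adjusted P = 0.0697 by edgeR). Slc27a2 had an adjusted P of 0.074 by edgeR, and Zic1 was low in all mice (0.492 to 3.67 CPM, and 0 in HFD + RSV mouse 2). Cox8b alone went the other way (log2FC 0.32, adjusted P = 0.488 by edgeR), and it had 41.8 to 109 CPM over all mice. Without control mouse 3, none of the 8 was called (Cidea 0.136 and Elovl3 0.0932, adjusted P by edgeR), and none was called without control mouse 2 or without any 1 of the HFD mice, whereas 5 were called without metformin mouse 3. Control mouse 3, the highest in the white adipocyte genes Cfd, Fabp4, and Cidec, was also the highest in Ucp1, Cidea, and Elovl3.

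Receptors and partners of the members were read next. Of 9 genes, 0 were called for HFD mice against control mice by edgeR (0.859% of all genes). At the unadjusted rule 0 passed (4.03% of all genes passed as lower), and the median log2FC was -0.10. Adipor2 and Adipor1 are receptors of adiponectin. Adipor2 had a log2FC of -0.59 (SE 0.26, adjusted P = 0.186), Adipor1 had 0.25 (SE 0.12, adjusted P = 0.214), and Lepr, the leptin receptor, had -0.51 (SE 0.31, adjusted P = 0.32; all edgeR). Rxra, the partner of Pparg on DNA, was 0.37 higher (SE 0.09, adjusted P = 0.0483 by edgeR), which passed the adjusted P but not the fold change.

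Markers of the other cell types in muscle were read beside these values. For HFD mice against control mice, 0 of 8 genes of adipocyte progenitors and fibroblasts, 0 of 8 of macrophages, 0 of 6 of endothelial cells, 0 of 5 of red blood cells, 0 of 6 of Schwann cells, and 0 of 10 of muscle fibres were called by edgeR. At the unadjusted rule the numbers were 0, 1, 0, 0, 4, and 1, all lower. Over all genes, 0.859% were called by edgeR and 4.03% passed the unadjusted rule as lower. Leaving out single mice brought Myh7 (without control mouse 1) and the Schwann cell gene Mbp (without metformin mouse 3) to a call, and no other gene of these lists. The progenitor and fibroblast genes summed to 722 to 795 CPM in the control group and 680 to 805 CPM in the HFD group. The endothelial genes summed to 378 to 444 CPM and 322 to 375 CPM, without overlap, and the Schwann cell genes to 61.6 to 215 CPM and 44.2 to 64.8 CPM. Myh7, the myosin of slow fibres, was 2.81, 917, 457, and 523 CPM in control mice 1 to 4 and 2.71 to 59.4 CPM in the HFD group, so the pieces also differed in their fibres. The part of these differences in the levels of the adipocyte genes was not tested.

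Macrophage genes moved with Adipoq from mouse to mouse, a relation examined after the values were seen. Their sum was 102 CPM in metformin mouse 2, the lowest of all, and 333 CPM in metformin mouse 1, but 188 CPM in metformin mouse 3, which had the most Adipoq. Over the 16 mice, the log2 sum had a Pearson r of 0.809 with Adipoq (permutation P = 0.000240, adjusted over 6 lists 0.00144) and a Spearman rho of 0.706 (permutation P = 0.00272, adjusted 0.0163). Without metformin mouse 2 and HFD mouse 2, r was 0.657, and after the group means were subtracted it was 0.803. Single macrophage genes then had an r of 0.443 (Cd68) to 0.835 (C1qa, a subunit of complement C1q), with Mrc1, the mannose receptor, at 0.816 and Adgre1, which encodes F4/80, at 0.809. The muscle fibre genes ran the other way, with r = -0.667 (permutation P = 0.00226, adjusted 0.00678) and rho = -0.674 (permutation P = 0.00550, adjusted 0.0165), and r was -0.767 without those same mice and -0.614 after subtraction of the group means. For the progenitor and fibroblast, endothelial, red blood cell, and Schwann cell genes, r was -0.0390 to 0.393 and rho 0.0324 to 0.353, with adjusted permutation P values of 0.248 to 0.907. The part of macrophages in the spread of the adipocyte genes was not tested.

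The genes outside the list whose level was most like that of the 8 members, by Pearson r with their mean log2 CPM over 16 mice after the group means were subtracted, were Smoc1 (0.991), Tenm4, Lgals12, Dram1, Ifi27l2a, Chst1, Ankef1, Acvr1c, Slc1a5, and Cd1d1 (0.984). Without metformin mice 2 and 3, r was 0.965 to 0.981 for these 10. Lgals12, a lectin of adipocyte lipid droplets, and Acvr1c, a receptor of the TGF-beta family, are on the list of further adipocyte genes. Since the 10 were picked by r over these same mice, the mice in which they peak and dip follow largely from the choice. Of the 10 genes, 9 had their highest level in metformin mouse 3 and all 10 their lowest in metformin mouse 2, such as Slc1a5, a glutamine transporter (17.2 to 476 CPM), and Lgals12 (0.712 to 81.6 CPM). None was called for HFD mice against control mice by edgeR (adjusted P 0.212 to 0.635).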

How the data were processed

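Total RNA of skeletal muscle from 16 mice (4 groups of 4) was sequenced after removal of ribosomal RNA. The extraction text of the labels names retinas, which differs from the tissue label. The authors counted fragments per transcript with StringTie and deposited whole-number expected counts, without normalization, and FPKM values per the file headers. The labels name fastp, HISAT2, and GRCm38, without versions, and all 28 member transcripts lie where GENCODE M21 has them. Here, counts were summed per gene name (4 lines broken in the table were joined, and 0 sample columns were unmapped). edgeR 4.0.16 in R 4.3.3 was run with filterByExpr (minimum count 10, minimum total 15), TMM, and a robust quasi-likelihood fit of all 16 mice. Standard errors are the absolute log2FC divided by the square root of F. DESeq2 1.42.0 was an alternative. Permutation tests were two-sided (scipy 1.17.1). The fit was tested on simulated data. Spread used log2 CPM with a prior count of 2.

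The members, gene lists, and tests were chosen with earlier results of these data known. All members were named in each comparison, with up to 4 genes per list by smallest P for HFD mice against control mice, genes at or near 0, the 10 genes most like the members, and transcripts with at least 10% of their gene's counts. The comparisons share the control and HFD mice. Precision was set by the variation between mice (common coefficient 0.261), and the mRNA and lncRNA tables together held 20281801 to 34021101 deposited counts per mouse.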

Additional observations from a re-analysis of the deposited data

Results flagged for a closer look

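In 60 groups of 4 mice (8 genes by CPM and 7 ratios to Adipoq, in 4 groups), 6 held a mouse whose distance from the nearest other mouse took more of the range of the group than Dixon's critical value at 95% allows. For independent values with a normal distribution, chance flags about 1 in 20 groups. The check used CPM and ratios without logs, and all ratios share Adipoq, so that rate may not hold here. Cfd was 272 CPM in HFD mouse 4, above the other 3 HFD mice. Fabp4 was 2222 CPM in control mouse 3, above the other 3 control mice. Pparg was 19.8 CPM in HFD + RSV mouse 3. The ratio of Lep to Adipoq was 0.186 in control mouse 4, above the other control mice, and still below every HFD mouse. In metformin mouse 2, which had the least Adipoq, the ratio of Fabp4 to Adipoq was 49.9 and that of Pparg to Adipoq was 1.53.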

How the results depend on the processing

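No paired analysis was possible because the numbers in the mouse labels do not link mice of different groups. Of 1218 values of a member under an alternative, 1171 kept their direction and their side of the threshold, 8 passed the threshold newly, and 39 changed sign, none of them for HFD mice against control mice and none from a called value. The cause of a change was not tested. For HFD mice against control mice, members called moved from 0 to 4 at an unadjusted P and to 1 in the fit of 12 mice without metformin, and was 0 to 1 when single mice were left out (1 without metformin mouse 3). For HFD + RSV mice against control mice, it moved from 0 to 2 at an unadjusted P. The number of genes called for HFD mice against control mice (132) was 759 at an unadjusted P, 374 at any fold change, 59 without the filter, 4 for single transcripts, 298 together with the lncRNA table, 354 with the 2 groups alone, 449 with 12 mice, 467 by DESeq2, and 45 with Adipoq as a covariate (an alternative added after the data were seen). Leaving out single mice gave 9 (without control mouse 2) to 435 (without metformin mouse 3). For HFD + RSV mice against HFD mice (0), it was 166 at an unadjusted P, 2 with the lncRNA table, 8 by DESeq2, and 0 to 1 without single mice. For metformin mice against HFD mice (2), it was 271, then 1 with the 2 groups alone, 16 by DESeq2, and 0 to 2 without single mice. For HFD + RSV mice against control mice (1), it was 418, then 2 for single transcripts, 2 with the lncRNA table, 88 with 12 mice, 114 by DESeq2, 5 with the covariate, and 0 to 88 without single mice. For metformin mice against control mice (0), it was 250, then 1 for single transcripts, 57 by DESeq2, 12 with the covariate, and 0 to 66 without single mice. Between the treated groups (0), it was 149, then 3 for single transcripts, 1 with the lncRNA table, and 5 by DESeq2.

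Signs changed as follows, all without a call. For single transcripts in HFD + RSV mice against HFD mice, the log2FC was -0.22 for Cidec and 0.22 for Pparg. With the covariate, it was -0.02 for Cidec in that comparison, -1.05 for Lep in metformin mice against HFD mice, 0.03 for Retn and 0.03 for Plin1 in HFD + RSV mice against control mice, 0.21 for Retn, 0.01 for Fabp4, and 0.12 for Pparg in metformin mice against control mice, and 0.50 for Lep between the treated groups. Leaving out single mice, HFD + RSV mice against HFD mice gave -0.27 to 0.88 for Adipoq, -0.04 to 1.11 for Retn, -0.09 to 0.59 for Fabp4, -0.63 to 1.35 for Plin1, -0.45 to 0.93 for Cidec, and -0.61 to 0.30 for Pparg. The HFD + metformin group against the control group gave -1.27 to 0.42 for Adipoq, -1.11 to 0.41 for Retn, -1.55 to 0.32 for Fabp4, -1.06 to 1.01 for Plin1, -1.77 to 0.19 for Cidec, and -1.30 to 0.34 for Pparg. Lep ran from -1.32 to 1.26 for metformin mice against HFD mice and from -2.03 to 0.60 between the treated groups, with both changes of sign in the fit without metformin mouse 3. The median SD between mice was 1.43 (without metformin mouse 2) to 1.92.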

Other observations

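The lncRNA table held 10 transcripts that overlap a member gene. The one with the most counts, NONMMUT058486.2 (chr6:115395605-115396870), lies within Pparg and had 42, 141, 203, and 110 counts in control mice 1 to 4 and a Spearman rho of 0.770 with the counts of Pparg over 16 mice. NONMMUT099540.1 at Adipoq had 95 counts in metformin mouse 3 and 0 to 9 in the others. The strand of these transcripts is not given in the table, so reads of the member genes and of these transcripts cannot be told apart.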
